A study of Mus musculus with 2 samples.

Results

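Interneurons that carry Lhx6 were taken from droplet libraries of mouse forebrain at embryonic day 18.5. One library is labelled Cyfip2 knockout and the other is labelled WT, and each combined cells of 2 forebrains of its genotype. The labels used here give neither the allele nor the strain, and the tissue was dissociated with papain before capture. A barcode counted as a cell with at least 1000 unique molecular identifiers (UMIs), at least 500 genes and at most 10% mitochondrial UMIs. A cell was a member with at least 2 Lhx6 UMIs, no Nkx2-1 or Lhx8 UMI, at most 1 UMI of Top2a, Mki67 and Cdk1 together and at most 3 UMIs of Neurod2 and Neurod6 together. This gave 586 of 12855 cells in the knockout-labelled library and 489 of 9086 cells in the WT library, 1075 of 21941 in all. These genes chose the cells, so their levels are a description. With 1 library per label no difference between the labels has a replicate check, no test was made, and every interval is a 95% interval for counting error only.

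Lhx6 encodes a LIM homeodomain factor that interneurons born in the medial ganglionic eminence switch on as they leave it. Cells bound for the cortex turn off Nkx2-1, the factor that specifies the eminence, while many striatal and ventral forebrain neurons of the same origin keep it, and Lhx8 goes with cholinergic fates. The migrating cells travel tangentially, with the chemokine receptors Cxcr4 and Ackr3 binding Cxcl12 and the receptor Erbb4 binding neuregulins, and most later become somatostatin or parvalbumin interneurons. Cyfip2 belongs to the WAVE regulatory complex, through which Rac drives branched actin at the edge of motile cells.

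The knockout-labelled library held 150828048 UMIs with a median of 8273 UMIs per cell, and the WT library 123978461 UMIs with a median of 9998. Members had medians of 7570 UMIs and 2900 genes in the knockout-labelled library, and of 7923 UMIs and 3009 genes in WT. Their summed depth was 4543879 UMIs in the knockout-labelled library and 4003266 UMIs in WT. As cells, 32 barcodes occurred in both libraries, and 1 knockout-labelled and 3 WT members carried such a barcode. Scrublet, a doublet caller, marked 25 knockout-labelled members (4.27%) and 9 WT members (1.84%), which were kept. The counts record neither position nor movement, so "cortical" and "migrating" rest on marker genes alone.

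Members carried the markers of Lhx6 interneurons in both libraries, with Sst in a minority. All 16 markers of that class passed the filter of measured genes, which asked for at least 20 CPM (a gene's UMIs scaled to the summed UMIs of the cells, the usual CPM unit) in either library and at least 60 UMIs in both together. Lhx6 itself was at 625.5 CPM in knockout-labelled and 729.7 CPM in WT members. Maf, a leucine zipper factor of these interneurons, had a UMI in 93.3% of knockout-labelled and 96.5% of WT members. Erbb4 had a UMI in 74.2% of knockout-labelled and 77.7% of WT members. Sst, the somatostatin precursor, had a UMI in 27.0% of knockout-labelled members (23.4 to 30.8) and 24.7% of WT members (21.0 to 28.8). Neither Gad1 nor Gad2, the enzymes that make GABA, had a UMI in 47 knockout-labelled members (8.02%) and 22 WT members (4.50%). Pvalb and Vip, markers of mature classes, were at 0 UMIs in the members of both libraries.

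Cells just inside the Lhx6 threshold held more Maf and less Meis2 than cells just outside it in both libraries. At 2 Lhx6 UMIs, Maf was at 1101 CPM in 123 knockout-labelled members and 937.5 CPM in 73 WT members. Among cells at 1 Lhx6 UMI that met every other term, Maf was at 656 CPM in 176 knockout-labelled cells and 690.1 CPM in 90 WT cells. Meis2, a factor of striatal neurons, was at 182 CPM just inside and 1113 CPM just outside in the knockout-labelled library, and at 424 CPM inside and 627 CPM outside in WT. Sst did not follow the threshold in both libraries, at 355 CPM just inside and 144 CPM just outside in the knockout-labelled library, but 57.3 CPM inside and 316 CPM outside in WT. Members with at least 10 Lhx6 UMIs numbered 45 in the knockout-labelled library (7.68%) and 74 in WT (15.1%). Of cells with 2 or more Lhx6 UMIs, the Nkx2-1 and Lhx8 terms left out 269 of 955 (28.2%) in the knockout-labelled library and 151 of 715 (21.1%) in WT.

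Against other GABAergic neurons, members differed in transcription factors, secreted ligands and receptors, and some of these genes were also high in nearer sets. The other GABAergic neurons had at least 2 Gad1 or Gad2 UMIs and no Lhx6 UMI, and numbered 1783 in the knockout-labelled and 1036 in the WT library. They held the striatal factor Meis2 at 2875 CPM in the knockout-labelled library and 2838 CPM in WT. The 15 genes with the largest ratio, taken in the library where it was smaller, were Nxph2, Thbs1, Mkx, Dgkg, Sst, Nxph1, Maf, Npy, Ackr3, Cux2, Sox6, Dpp10, Elfn1, Cck and Edaradd. Nxph2, a secreted neurexin ligand, was at 94.6 CPM in members against 0.53 CPM in other GABAergic neurons of the knockout-labelled library, and at 96.4 against 0.966 CPM in WT. Maf was 26.3-fold higher in members of the knockout-labelled library and 26.4-fold higher in members of the WT library. Sox6, which acts after Lhx6 in these cells, was 18.5-fold higher in the knockout-labelled library and 19.2-fold higher in WT. Ackr3, which scavenges Cxcl12, was 21.3-fold higher in the knockout-labelled library and 25.7-fold higher in WT. Erbb4 differed less, at 250.4 against 66.5 CPM in the knockout-labelled library and 285.5 against 60.02 CPM in WT. Another set had at least 2 Prox1 and Adarb2 UMIs together, a Gad1 or Gad2 UMI and no Lhx6, Nkx2-1 or Lhx8 UMI. In that set Erbb4 was nearer to members, at 172 CPM in 550 knockout-labelled cells and 165 CPM in 342 WT cells. Since the cells were chosen on Lhx6, these ratios describe the selection.

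**Figure D1:**
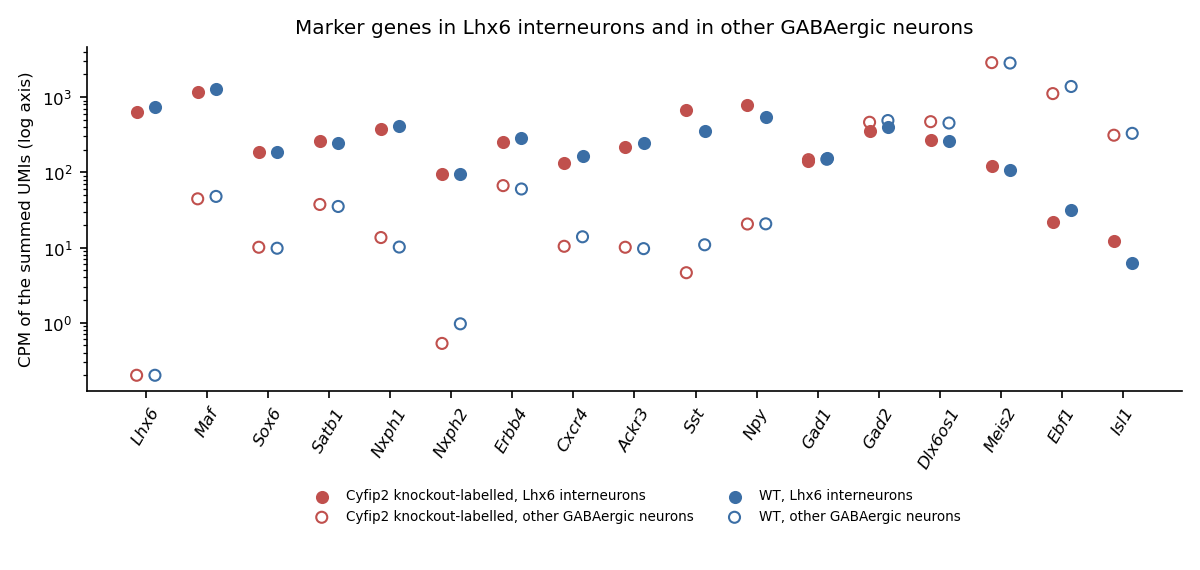
Levels of selected genes in CPM of summed UMIs (log axis) in Lhx6 interneurons (filled) and in other GABAergic neurons (open), knockout-labelled library in red, WT in blue; Lhx6 is 0 by rule in the open circles and drawn at the lower edge. Maf at 1168 CPM in knockout-labelled and 1264 CPM in WT members stands far above its open circles, and Meis2 at 122 CPM in knockout-labelled and 107 CPM in WT members far below.

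Genes of striatal projection neurons were low in members. Ebf1, a factor of that lineage, was at 21.8 CPM in members against 1114 CPM in other GABAergic neurons of the knockout-labelled library, and at 32.0 against 1385 CPM in WT. Isl1, another such factor, was at 12.1 against 311.5 CPM in the knockout-labelled library and 6.25 against 329.8 CPM in WT. Members were also set beside cells with at least 2 Nkx2-1 or Lhx8 UMIs, 236 in the knockout-labelled and 122 in the WT library. Maf was at 1168 CPM in members against 110.1 CPM in those cells in the knockout-labelled library, and at 1264 against 191 CPM in WT. Sox6 was closer, at 187 CPM in members against 155.5 CPM in those cells in the knockout-labelled library and 188 against 148 CPM in WT. Sst was at 679 CPM in members against 743.5 CPM in those cells in the knockout-labelled library, and at 355 against 211 CPM in WT. Npy was at 782 against 389.5 CPM in the knockout-labelled library and 541 against 292 CPM in WT.

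Some members carried genes of another class. The striatal markers counted here were the 10 that are on no interneuron or guidance list and in no term of the cell rule. Their summed level was 269 CPM in knockout-labelled and 273 CPM in WT members, and none was at 0 in both. Striatal markers reached 3 UMIs in 69 knockout-labelled members (11.8%) and 41 WT members (8.38%). Microglial markers reached 3 UMIs in 4 knockout-labelled members and 1 WT member, and the 9 of them summed to 156 CPM in knockout-labelled and 5.50 CPM in WT members, none at 0 in both. Progenitor markers reached 3 UMIs in 113 knockout-labelled members (19.3%) and 102 WT members (20.9%). Over 7 classes (ventral forebrain, caudal eminence, striatal, excitatory, glial, microglial and vascular) the count was 93 knockout-labelled members (15.9%) and 58 WT members (11.9%). Nkx2-1 and Lhx8, by rule, and Chat of the ventral forebrain list were at 0 in members of both libraries.

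Lhx6 interneurons, as the whole rule defines them, made up a lower share of cells in the knockout-labelled library, beyond counting error. The share was 4.56% in the knockout-labelled library (4.20 to 4.93) and 5.38% in WT (4.93 to 5.87), a ratio of 0.847 (0.753 to 0.952). The interval of the ratio passed 1 when 1 Lhx6 UMI was enough (0.930, from 0.838 to 1.03). It also did so among cells of at least 3000 UMIs (0.906, from 0.801 to 1.02) and when the rule was applied after thinning every cell to 3000 UMIs (0.867, from 0.745 to 1.01). The share also depends on the terms that leave cells out. Before those terms, cells with at least 2 Lhx6 UMIs numbered 955 of 12855 in the knockout-labelled library and 715 of 9086 in WT. The rule kept 61.4% of them in the knockout-labelled library and 68.4% in WT. Genotype, dissection and dissociation cannot be told apart with 1 library per label.

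Few genes differed in size between knockout-labelled and WT members, and the largest ratios upwards were those of microglial genes. A gene was called at a ratio of at least 1.5-fold with an interval that leaves out 1, a criterion of size that tests nothing. Of 6786 measured genes, 38 (0.560%) were called higher in the knockout-labelled members and 41 (0.604%) were called lower, and the median log2 ratio of knockout-labelled over WT was -0.03. Of all measured genes 3914 (57.7%) had a ratio below 1. Of the 12 largest called ratios upwards, 10 belonged to microglial or immune genes, among them Ctss, C1qb, Cd52, Fcer1g, C1qc, C1qa, Ifitm3, Apoe and B2m. Ctss, a lysosomal protease of microglia, was at 42.5 CPM in knockout-labelled and 0.25 CPM in WT members. Between 89.2% (Apoe) and 100% of the knockout-labelled UMIs of these 9 named genes lay in 5 cells. The 4 knockout-labelled members and 1 WT member that carry microglial UMIs were then left out, a choice made after seeing the data. Without them none of these 9 reached 20 CPM in either library. C1qa, C1qb and C1qc are among the markers that defined those members, so for these genes the drop follows from the choice. Without those members 27 genes were called higher and 43 lower.

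**Figure D2:**
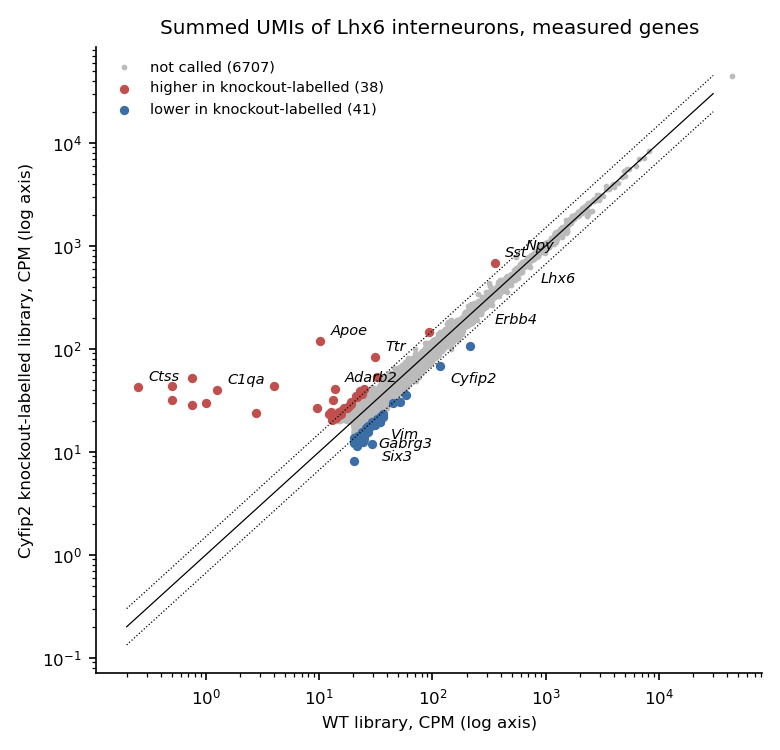
CPM of each measured gene in WT members (x, log axis) and knockout-labelled members (y, log axis), with 38 genes called higher in red, 41 called lower in blue, the line of equality and dotted lines at 1.5-fold. The red points far above the line at the left are microglial genes such as Ctss, Sst is a red point at 679 CPM in knockout-labelled and 355 CPM in WT members, and Cyfip2 is a blue point at 67.6 CPM in knockout-labelled and 116 CPM in WT members.

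Cyfip2 was lower in knockout-labelled than in WT Lhx6 interneurons, although its tags were level over the whole libraries. Its level was 67.6 CPM (60.2 to 75.6, from 307 UMIs) in knockout-labelled members and 116 CPM (from 466 UMIs) in WT members, a log2 ratio of -0.78 (-0.997 to -0.57). Summed over all cells, Cyfip2 stood at 84.0 CPM in the knockout-labelled library and 83.9 CPM in WT, so these tags do not bear out the knockout label. The targeted part of the gene is unknown here, and tags from outside it check nothing. Cyfip2 (ENSMUSG00000020340) spans positions 46193850 to 46312859 of chromosome 11 in mm10, on the minus strand, with Fndc9 on the opposite strand inside it.

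The lower Cyfip2 level was spread over members, since the 5 cells with the most held 5.86% of its UMIs in knockout-labelled and 4.72% in WT members. Unthinned, Cyfip2 had a UMI in 38.4% of knockout-labelled and 56.6% of WT members. Members were then thinned to 2000 UMIs each, which left out 25 knockout-labelled and 12 WT members as too shallow. The share was then 10.2% of knockout-labelled members (7.79 to 13) and 21.2% of WT members (17.6 to 25.1). Thinned excitatory neurons gave 17.0% in the knockout-labelled library and 18.2% in WT. Microglia gave 14.7% of 150 knockout-labelled cells, at a median depth of 12711 UMIs before thinning, and 0 of 73 WT cells, at 15119 UMIs, which allows a share of up to 4.11% (3 counts of 73). Thinned other GABAergic neurons gave 15.3% in the knockout-labelled library and 15.6% in WT. The share in knockout-labelled members was thus no higher than in microglia of that library. How many of these UMIs came from free RNA was not tested, and with free RNA subtracted the log2 ratio in members was -0.77.

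Subsets of members gave the same direction for Cyfip2. Members with an Sst UMI were at 65.6 CPM in the knockout-labelled and 123 CPM in the WT library (log2 ratio -0.90). Members without one were at 68.5 CPM in the knockout-labelled and 114 CPM in the WT library (log2 ratio -0.73). The log2 ratio was -0.74 at 2 to 4 Lhx6 UMIs, -0.76 at 5 or more, and -0.86 without members that carry UMIs of the 7 classes.

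In the other cell sets Cyfip2 was level or higher in the knockout-labelled library, apart from a small difference in excitatory neurons. Nkx2-1 or Lhx8 cells were at 68.1 CPM in the knockout-labelled library and 71.8 CPM in WT (log2 ratio -0.08, from -0.47 to 0.33). Other GABAergic neurons were at 77.5 CPM in the knockout-labelled library and 73.8 CPM in WT (log2 ratio 0.07, from -0.07 to 0.22). Excitatory neurons, with at least 4 Neurod2 and Neurod6 UMIs, were at 90.7 CPM in the knockout-labelled library and 100.7 CPM in WT (log2 ratio -0.15). Dividing cells had 73.0 CPM in the knockout-labelled library and 33.6 CPM in WT, and microglia 51.1 CPM in the knockout-labelled library and 3.15 CPM in WT. Whether members differ from these sets was not tested.

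**Figure D3:**
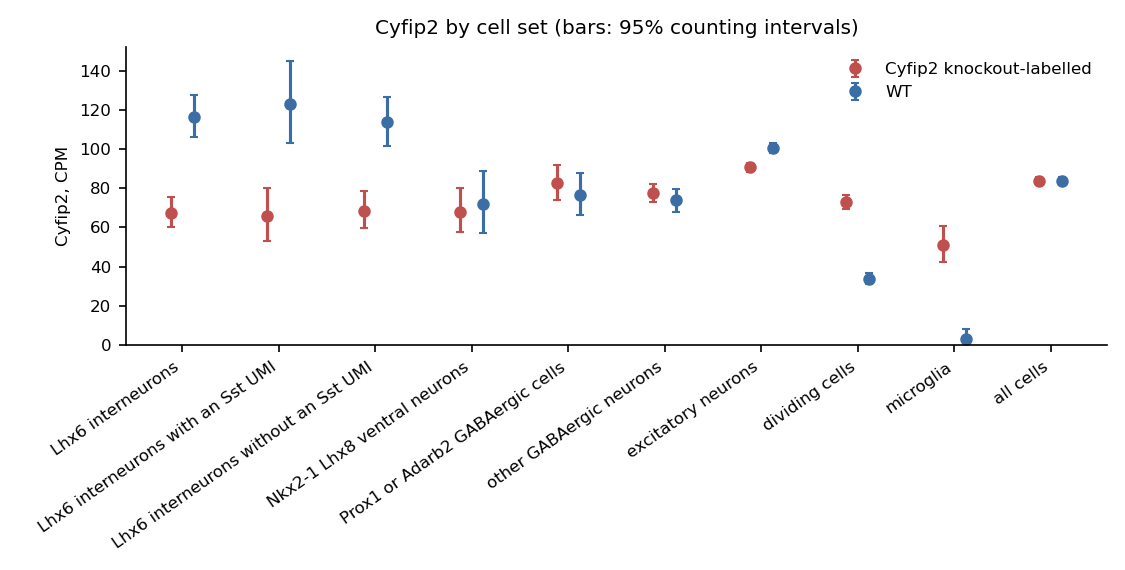
Cyfip2 in CPM by cell set, knockout-labelled library in red, WT in blue, with bars for 95% counting intervals. In Lhx6 interneurons, with or without an Sst UMI, the knockout-labelled interval lies below that of WT, whereas in microglia the knockout-labelled library is at 51.1 CPM and WT at 3.15 CPM.

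The other genes of the WAVE complex stayed within 1.5-fold. Of 12 measured WAVE genes and Cyfip partners 0 were called higher and 1 lower, Cyfip2 itself, with a median log2 ratio of 0.08. Over all measured genes 0.560% were called higher and 0.604% lower, shares at which a short list holds few calls or none. Cyfip1, the paralogue of Cyfip2, was at 63.6 CPM in knockout-labelled and 69.2 CPM in WT members (log2 ratio -0.12, from -0.36 to 0.12). Nckap1, which binds the Cyfip subunit, was at 62.1 CPM in knockout-labelled and 75.9 CPM in WT members (log2 ratio -0.29, from -0.53 to -0.05). Wasf1, a neuronal WAVE protein, was at 94.4 CPM in knockout-labelled and 85.2 CPM in WT members (log2 ratio 0.15, from -0.06 to 0.36). Fxr1, an RNA-binding relative of the Fmr1 protein, was at 113 CPM in knockout-labelled and 85.9 CPM in WT members (log2 ratio 0.39, from 0.19 to 0.59). Of 40 measured genes of actin assembly none was called, and the median log2 ratio was -0.04. Their log2 ratios ran from -0.40 for Cap1, which recycles actin monomers, to 0.22 for Srgap1, a regulator of small GTPases.

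Sst was called higher in knockout-labelled members. It was at 679 CPM (from 3085 UMIs) in knockout-labelled members and 355 CPM (from 1422 UMIs) in WT members, a log2 ratio of 0.93 (0.84 to 1.03). Npy, the neuropeptide Y precursor that many Sst cells also make, was at 782 CPM in knockout-labelled and 541 CPM in WT members (log2 ratio 0.53, from 0.45 to 0.61), short of 1.5-fold. Cells outside the set did not share 1 direction. Over all other cells Sst was at 26.6 CPM in the knockout-labelled library and 13.3 CPM in WT. In Nkx2-1 or Lhx8 cells Sst was at 743.5 CPM in the knockout-labelled library and 211 CPM in WT. In other GABAergic neurons it was lower in the knockout-labelled library, at 4.62 CPM against 10.9 CPM in WT (log2 ratio -1.23, from -1.73 to -0.75). Within members the ratio also varied with Lhx6: at 2 to 4 Lhx6 UMIs Sst was at 461 CPM in knockout-labelled and 101 CPM in WT members (log2 ratio 2.20, from 1.93 to 2.47). At 5 or more Lhx6 UMIs Sst was at 883 CPM in knockout-labelled and 478 CPM in WT members (log2 ratio 0.89, from 0.79 to 0.99).

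The share of members with an Sst UMI could not be told apart between the libraries. After thinning it was 18.2% (15.1 to 21.6) in the knockout-labelled library and 15.5% (12.4 to 19.1) in WT, a difference of 2.67 percentage points (-1.89 to 7.22). In excitatory neurons, which should lack Sst, the thinned share was 0.567% in the knockout-labelled library and 0.317% in WT, at median depths of 9462 UMIs in the knockout-labelled library and 11273 UMIs in WT before thinning. For Npy the thinned shares were 30.1% of knockout-labelled and 29.4% of WT members. Among members with an Sst UMI, the 158 knockout-labelled cells had a median of 5 and a maximum of 369 Sst UMIs, and the 121 WT cells a median of 3 and a maximum of 141. The 10 cells with the most Sst held 53.5% of its UMIs in knockout-labelled and 58.9% in WT members. Without those 10 cells in each library, a choice made after seeing the data, the log2 ratio was 1.10 for Sst and 0.22 for Npy.

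**Figure D4:**
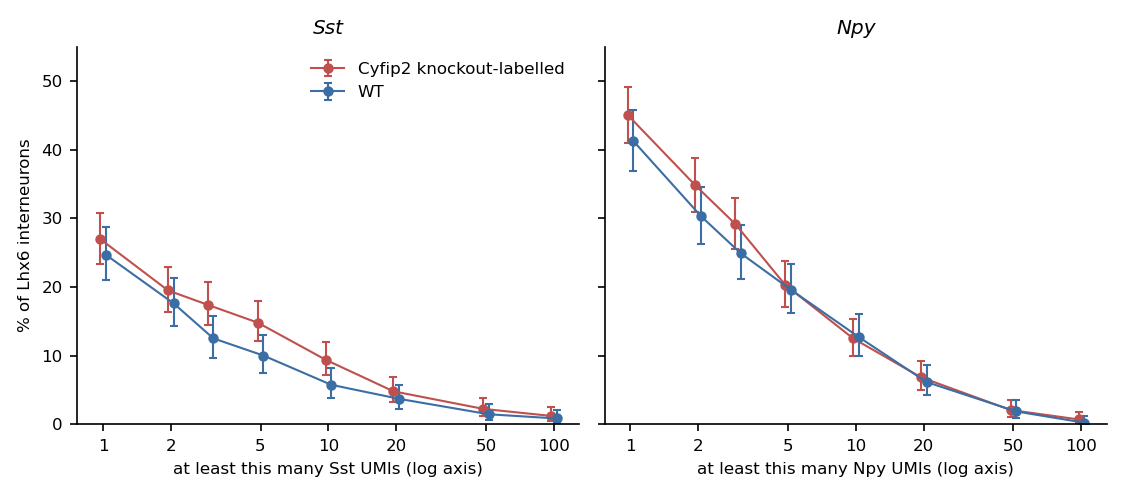
Percentage of Lhx6 interneurons (y) with at least the given number of Sst (left panel) or Npy (right panel) UMIs (x, log axis), knockout-labelled library in red and WT in blue, with 95% exact binomial bars. For Sst the knockout-labelled points lie above WT at each threshold, with 9.39% of knockout-labelled and 5.73% of WT members at 10 UMIs, while for Npy 12.5% of knockout-labelled and 12.7% of WT members reach 10 UMIs.

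The proximal promoters of both peptide genes are shown because the results on peptides turn on these genes. The sequences are from RefSeq on GRCm38.p6, read 5′ to 3′ on the strand of the gene, from 250 bases before to 50 after its start. Sst is at chr16:23890795-23891094 on the minus strand and Npy at chr6:49822460-49822759 on the plus strand, and capitals mark TGACGTCA, the palindromic cAMP response element.
Sst: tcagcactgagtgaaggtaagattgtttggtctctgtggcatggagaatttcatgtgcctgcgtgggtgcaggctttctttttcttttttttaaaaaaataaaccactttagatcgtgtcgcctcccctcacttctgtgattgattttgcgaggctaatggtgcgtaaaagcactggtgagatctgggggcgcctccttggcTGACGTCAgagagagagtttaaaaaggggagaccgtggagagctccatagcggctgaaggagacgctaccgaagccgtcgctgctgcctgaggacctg
Npy: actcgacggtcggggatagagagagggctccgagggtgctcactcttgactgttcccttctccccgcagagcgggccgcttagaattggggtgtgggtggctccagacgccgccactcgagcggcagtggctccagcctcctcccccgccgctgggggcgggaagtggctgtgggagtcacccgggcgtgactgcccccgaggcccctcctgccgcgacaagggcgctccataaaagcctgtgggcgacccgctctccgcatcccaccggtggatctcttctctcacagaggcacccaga
The element occurs at 1 place in the Sst window, beginning 48 bases before the start, and these letters are not in the Npy window. It is its own reverse complement, so 1 search covers both strands, and 588 of 32851 promoters of this length (1.79%) hold it. A match describes the sequence and not binding.

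Members with an Sst UMI held more Npy, Neto1, Satb1 and Reln than members without one in both libraries. Since the same cells gave the split and the levels, these ratios are a description. Npy was at 1863 CPM in cells with Sst against 253 CPM in cells without in the knockout-labelled library, and at 1063 against 333.5 CPM in WT. Neto1, an auxiliary subunit of glutamate receptors, was at 386.5 against 161 CPM in the knockout-labelled library and 491.5 against 146 CPM in WT. Satb1, a factor that promotes the Sst fate, was at 321.5 against 232 CPM in the knockout-labelled library and 380.0 against 195.5 CPM in WT. Reln, an extracellular positioning signal, was at 206 against 81.0 CPM in the knockout-labelled library and 232 against 144 CPM in WT. The 10 largest ratios upwards were those of Npy, Neto1, Prkcq, Klf5, Pxdc1, Cygb, Fhl1, Mgll, Nebl and Cntn1. Satb1 and Reln were not among them and are named as list members. Cells with Sst were deeper than cells without, with medians of 9470 against 6952 UMIs in the knockout-labelled library and 9260 against 7617 UMIs in WT.

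Members with an Sst UMI held less Etv1, Jun and Sox1 than members without one in both libraries. Etv1, an ETS factor, was at 16.1 CPM with Sst against 51.5 CPM without in the knockout-labelled library, and at 28.1 against 60.1 CPM in WT. Jun, an immediate early factor, was at 119 against 309 CPM in the knockout-labelled library and 138 against 299.6 CPM in WT. Sox1, a factor of neural progenitors and some ventral neurons, was at 114.5 against 214 CPM in the knockout-labelled library and 114 against 228 CPM in WT. The 10 largest ratios downwards were those of Etv1, Jun, Sox1ot, Pbx3, Car2, Hist1h2ac, Adamtsl1, Rnd2, Gadd45g and Efcab6. Sox1 was not among them and is named as a list member. Between the labels, Npy was higher in knockout-labelled than in WT cells with Sst (log2 ratio 0.81, from 0.71 to 0.91) and lower in those without (log2 ratio -0.40, from -0.53 to -0.26). Few cells held much of the Npy. Over all members the 10 cells with the most held 42.26% of its UMIs in knockout-labelled and 29.55% in WT members. The highest cell had 635 Npy UMIs in knockout-labelled and 101 in WT members.

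Transcription factors of the medial eminence lineage stayed close between the labels. Of 36 measured factors 0 were called higher and 1 lower, with a median log2 ratio of -0.10 beside -0.03 over all genes. At the shares called over all genes, 0.560% higher and 0.604% lower, few calls or none fall in such a list. The called gene was Nfia, a nuclear factor I protein, at 22.2 CPM in knockout-labelled and 35.5 CPM in WT members (log2 ratio -0.67, from -1.06 to -0.30). Maf was at 1168 CPM in knockout-labelled and 1264 CPM in WT members (log2 ratio -0.11). Sox6 was at 187 CPM in knockout-labelled and 188 CPM in WT members (log2 ratio -0.01, from -0.15 to 0.14). Satb1 was at 262 CPM in knockout-labelled and 248 CPM in WT members (log2 ratio 0.08, from -0.05 to 0.20). Sox4, a factor of young neurons, was at 1948 CPM in knockout-labelled and 2324 CPM in WT members (log2 ratio -0.25). Npas1 had the largest ratio upwards of the list, at 122 CPM in knockout-labelled and 101 CPM in WT members (log2 ratio 0.27, from 0.09 to 0.46).

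Of the subtype and peptide genes only Sst was called, among 10 measured of 41, with a median log2 ratio of -0.03. Over all genes 0.560% were called higher and 0.604% lower. Reln was at 122 CPM in knockout-labelled and 169 CPM in WT members (log2 ratio -0.47, from -0.63 to -0.31). Calb1, the calcium buffer calbindin, was at 51.7 CPM in knockout-labelled and 41.5 CPM in WT members (log2 ratio 0.32). Nxph1 was at 380.3 CPM in knockout-labelled and 413 CPM in WT members (log2 ratio -0.12, from -0.22 to -0.02). Elfn1, a synaptic protein of Sst interneurons, was at 61.2 CPM in knockout-labelled and 63.0 CPM in WT members (log2 ratio -0.04).

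Receptors that guide tangential migration all stayed within 1.5-fold. Of 28 measured guidance genes 0 were called in either direction, beside 0.560% called higher and 0.604% lower over all genes. Of their ratios 9 lay above 1 and 19 below, beside 57.7% below 1 over all genes. The median log2 ratio was -0.08 for the list and -0.03 over all genes. Cxcr4, the signalling receptor of Cxcl12, was at 132 CPM in knockout-labelled and 163 CPM in WT members (log2 ratio -0.30, from -0.46 to -0.13). Ackr3 was at 215 CPM in knockout-labelled and 248 CPM in WT members (log2 ratio -0.21, from -0.34 to -0.08). Erbb4 was at 250.4 CPM in knockout-labelled and 285.5 CPM in WT members (log2 ratio -0.19, from -0.31 to -0.07). Epha3, an ephrin receptor, had a log2 ratio of -0.36, and Sema6a and Plxna4, a semaphorin and a plexin, had -0.30 each. Robo2, a Slit receptor, was at 106.5 CPM in knockout-labelled and 92.2 CPM in WT members (log2 ratio 0.21, from 0.01 to 0.41).

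In the machinery of migration none of 43 measured genes was called, beside 0.560% called higher and 0.604% lower over all genes. Their ratios lay above 1 for 20 genes and below 1 for 23, with a median log2 ratio of -0.01. Dcx, the microtubule protein doublecortin, was at 1041 CPM in knockout-labelled and 1140.0 CPM in WT members (log2 ratio -0.13). Rac1, which activates WAVE, was at 162 CPM in knockout-labelled and 189.8 CPM in WT members (log2 ratio -0.23, from -0.37 to -0.08). Myh10, a nonmuscle myosin, was at 137 CPM in knockout-labelled and 172 CPM in WT members (log2 ratio -0.33). Gap43, a growth cone protein, had the largest ratio upwards, at 338 CPM in knockout-labelled and 253.5 CPM in WT members (log2 ratio 0.41, from 0.30 to 0.53).

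**Figure D5:**
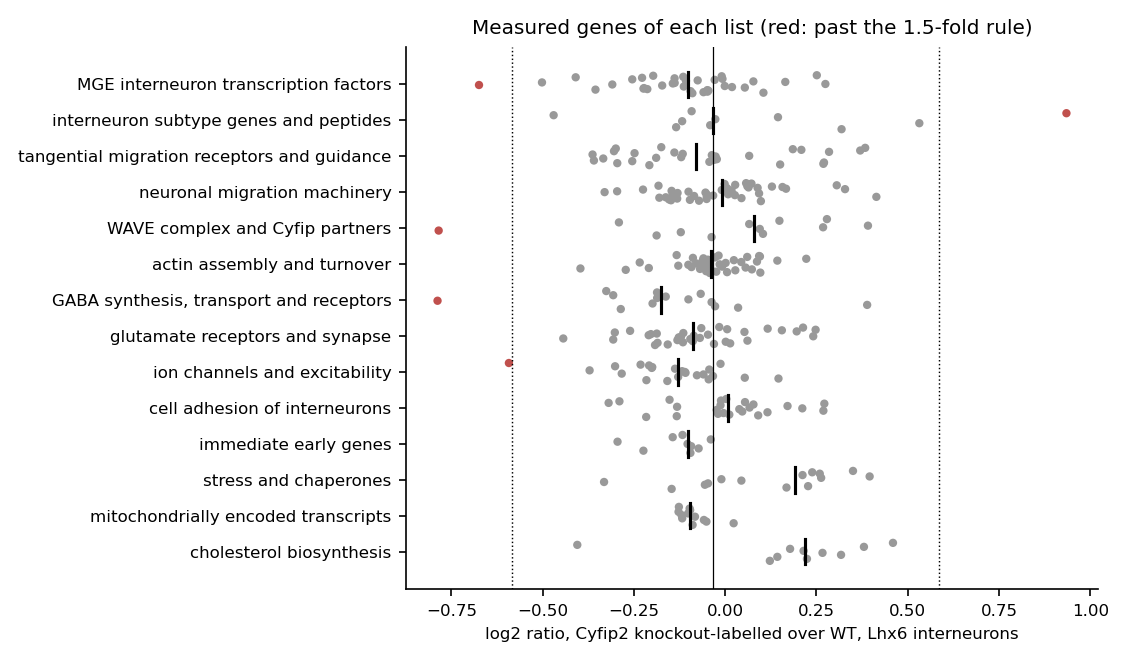
Log2 ratios of the knockout-labelled over the WT library in Lhx6 interneurons for the measured genes of 14 lists (x), 1 row per list, with a black bar at each list's median and dotted lines at 1.5-fold. Red points are called, with Nfia, Cyfip2, Gabrg3 and Scn8a on the left and Sst on the right, and the bars of the stress list (0.19) and the cholesterol list (0.22) lie farthest right.

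Of the GABA and channel genes 2 were called, both lower, beside 0.604% called lower over all genes. Of 14 measured GABA genes 12 had a ratio below 1, beside 57.7% of all genes, and the median log2 ratio was -0.18. The called gene was Gabrg3, a gamma subunit of the GABA-A receptor, at 15.6 CPM in knockout-labelled and 27.0 CPM in WT members (log2 ratio -0.79, from -1.24 to -0.34), and it fell short of 1.5-fold when 1 Lhx6 UMI was enough (-0.55). Gad1 was at 143.5 CPM in knockout-labelled and 154 CPM in WT members (log2 ratio -0.10, from -0.26 to 0.06). Gad2 was at 349 CPM in knockout-labelled and 397 CPM in WT members (log2 ratio -0.19). Of 23 measured channel genes 21 ratios lay below 1, with a median log2 ratio of -0.13. The called one was Scn8a, a sodium channel, at 29.5 CPM in knockout-labelled and 44.5 CPM in WT members (log2 ratio -0.59, from -0.93 to -0.26). Among 34 measured glutamate receptor and synapse genes none was called, with a median log2 ratio of -0.09, from Grin1, an NMDA receptor subunit (-0.44), to Syn1, a vesicle protein (0.25).

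Adhesion, stress, immediate early, mitochondrial and cholesterol lists had no called gene, beside 0.560% called higher and 0.604% lower over all genes. The 24 measured adhesion genes had a median log2 ratio of 0.01. The 14 measured stress genes had a median log2 ratio of 0.19, with Hspa5, the main chaperone of the endoplasmic reticulum, at 192 CPM in knockout-labelled and 146 CPM in WT members (log2 ratio 0.40, from 0.24 to 0.55). In cholesterol synthesis 9 of 10 ratios lay above 1 (median log2 ratio 0.22), whereas 57.7% of all genes had a ratio below 1. Sqle, squalene epoxidase, was at 50.8 CPM in knockout-labelled and 37.0 CPM in WT members (log2 ratio 0.46, from 0.16 to 0.77), and Sc5d, a late enzyme of that route, was the exception (log2 ratio -0.41). All 9 measured immediate early genes had ratios below 1, beside 57.7% of all genes. Their median log2 ratio was -0.10, beside -0.03 over all genes. Fos was at 149.9 CPM in knockout-labelled and 159.9 CPM in WT members (log2 ratio -0.09, from -0.25 to 0.06). Of 12 measured mitochondrial transcripts 11 had ratios below 1, with a median log2 ratio of -0.10, again beside 57.7% and -0.03 over all genes.

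Outside the 14 lists, Adarb2 and Ttr led the genes higher in knockout-labelled members once the microglial genes are set aside. Each is on a marker list of another cell class. Adarb2, a marker of caudal eminence interneurons, was at 40.9 CPM in knockout-labelled and 13.7 CPM in WT members (log2 ratio 1.58, from 1.13 to 2.04). It had a UMI in 7.17% of knockout-labelled and 3.68% of WT members, and 5 cells held 45.7% of its knockout-labelled and 70.9% of its WT UMIs. At 5 or more Lhx6 UMIs it was at 17.9 CPM in knockout-labelled and 13.3 CPM in WT members (log2 ratio 0.43, from -0.25 to 1.11). At 2 to 4 it was at 65.5 CPM in knockout-labelled and 14.6 CPM in WT members. The call was lost when 1 Lhx6 UMI was enough (log2 ratio 0.54). Ttr, a thyroxine carrier of the choroid plexus, was at 83.0 CPM in knockout-labelled and 31.0 CPM in WT members (log2 ratio 1.42). Over all other cells Ttr was also higher in the knockout-labelled library, at 2111 CPM against 1436 CPM in WT. Among these, dividing cells went the other way, at 2866 CPM in the knockout-labelled library and 5799 CPM in WT. In barcodes of 10 to 99 UMIs, which hold free RNA, Ttr was at 2781 CPM in the knockout-labelled library and 1380 CPM in WT, and the part of free RNA in the difference was not tested.

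Without the microglial members the other genes among the 12 largest ratios upwards were Sst, Zswim9, P4ha1, Tmem158, Kdm4c, Khdrbs3, Dusp18, Rgma, Zbed5 and Ccnd2. Tmem158 was then at 35.4 CPM in knockout-labelled and 21.3 CPM in WT members (log2 ratio 0.73). Ccnd2, a cyclin, was then at 36.8 CPM in knockout-labelled and 22.8 CPM in WT members (log2 ratio 0.69). H2-D1, a class I histocompatibility gene, had a log2 ratio of 1.48 with the microglial members and 0.11 without them.

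Of the 12 largest called ratios downwards, Cyfip2 was the most abundant. Six3, a striatal factor, was at 11.9 CPM in knockout-labelled and 29.2 CPM in WT members (log2 ratio -1.30), with 84.6% of its WT UMIs in 5 cells. Its log2 ratio was 0.28 when 1 Lhx6 UMI was enough and 1.11 without members carrying UMIs of the 7 classes, each with an interval that takes in 0. Six3 is itself a striatal marker used to leave out those members, so the value of 1.11 is not independent of that choice. Vim, an intermediate filament of progenitors, was at 19.4 CPM in knockout-labelled and 34.5 CPM in WT members (log2 ratio -0.83), with 64.5% of its WT UMIs in 5 cells, and its log2 ratio was 0.40 (-0.09 to 0.90) without the cells marked as doublets. Mid1, a microtubule-binding ubiquitin ligase, was at 19.6 CPM in knockout-labelled and 34.2 CPM in WT members (log2 ratio -0.81, from -1.21 to -0.41). Over all other cells Mid1 was at 27.7 CPM in the knockout-labelled library and 39.7 CPM in WT. The others were Sept1, Blzf1, B3glct, Sfxn2, Rgs3, Myl6b, Gabrg3 and Dpy19l3, at 11.4 to 18.1 CPM in knockout-labelled and 21.0 to 31.2 CPM in WT members, and for these 8 the 5 cells with the most UMIs held at most 22.2% in either library.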

How the data were processed

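The authors deposited UMI counts per gene and barcode for 2 libraries, which per the file headers come from Cell Ranger 4 and per the submitters' processing notes use mm10. No other counting setting is given here. Members and lists were chosen with earlier results of these data known. Cells were selected by UMI rules, and counts were summed over members and scaled to CPM. Ratios carry exact conditional Poisson intervals, shares exact binomial intervals and the ratio of shares a log interval, all at 95%. UMIs of 1 cell are not independent, so the intervals are too narrow for differences between embryos. Named genes were the cell rule's, list members, the 12 largest called ratios in each direction, the 15 against other GABAergic neurons and the 10 in each direction by Sst UMI. Left unnamed were Xist, Tsix, Y-linked, haemoglobin, mitochondrial and unnamed transcripts. Scrublet in scanpy 1.11.5 ranked cells, and 0.8% per 1000 cells were marked. The ratio rule and the thinning were tested on simulated data. Analyses used Python 3.11, numpy 2.4.6 and scipy 1.17.1, and positions GENCODE M21. Alternatives changed the Lhx6 minimum, the filters on cells and levels, doublet removal, scaling, thinning and free RNA. A few genes are not reported here.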

Additional observations from a re-analysis of the deposited data

How the results depend on the processing

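No paired analysis was possible because each label has 1 library, and no replicate could be left out. The count of genes lower in the knockout-labelled library, 41 as reported, was 62 with at least 1 Lhx6 UMI, 63 with at least 3, 99 with no Neurod2 or Neurod6 UMI and a Gad UMI, and 65 with equal weight for each cell. At 50 CPM and 150 UMIs 6 genes were higher and 4 lower, and with no CPM minimum and 10 UMIs 277 and 254. Both filters also change how many genes are measured, so these counts cannot be compared as shares. Erbb4 over other GABAergic neurons moved from a 3.76-fold to a 3.44-fold ratio with 1 Lhx6 UMI. The ratio of Sst lay between 0.73 and 1.10 and that of Cyfip2 between -0.86 and -0.64 on the log2 scale over all settings run; members split by Lhx6 count gave Sst a wider range, 2.20 at 2 to 4 UMIs and 0.89 at 5 or more. Six3, Vim and some immune genes lost their call and changed sign, each time with an interval that takes in 0, so no direction is given. This was so for Six3 with 1 Lhx6 UMI (0.28) and for Vim without doublets (0.40). Without members carrying microglial UMIs it was so for Ctss (1 UMI in each library), C1qa and Ifitm3 (each -0.17) and B2m (-0.38). Without members carrying UMIs of 7 other classes it was so for Ctss, Cd52 and Ifitm3 (each -0.11), B2m (-0.70), H2-D1 (-0.21), Six3 (1.11) and Vim (0.14); the cause was not tested. These member choices and the one leaving out 10 Sst cells were added after seeing the data. C1qa and Six3 are among the markers that defined the members left out, so their changes are not independent of those choices. Depth limits genes near 20 CPM, where a 1.5-fold ratio rests on few UMIs.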
